A study of Homo sapiens with 6 samples.

Results

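The tetraspanins described here are 10 genes of 1 membrane protein family, TSPAN1, TSPAN4, TSPAN8, TSPAN14, TSPAN15, TSPAN17, CD9, CD63, CD81 and CD151, found by symbol among the 26364 genes of the deposited table. They were chosen with the difference between BRD8 siRNA and control already known, so their differences are given as a description and not as a test. All 10 were present and all 10 reached the mean of 10 normalized counts needed for the fit over the whole table. The libraries came from Calu3, a human lung adenocarcinoma cell line with features of airway gland epithelium. There were 3 libraries from cells given negative control siRNA (siNC) and 3 from cells given siRNA against BRD8 (siBRD8), each at 20 nmol and delivered with the same lipid reagent. BRD8 is a bromodomain subunit of a histone acetyltransferase complex. Only 1 reagent against BRD8 was used, and how long after transfection the cells were harvested is not stated in the labels. The comparison asks which transcripts BRD8 influences in lung epithelial cells.

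Tetraspanins are small proteins that cross the membrane repeatedly and expose a large extracellular loop. They rarely bind ligands themselves, and instead gather integrins, proteases, claudins and immunoglobulin-type proteins into membrane patches and steer their trafficking. In epithelia they are known from cell adhesion, from ectodomain shedding and from extracellular vesicles, whose surface carries CD9, CD63 and CD81. Members of the TspanC8 subgroup, to which TSPAN14, TSPAN15 and TSPAN17 belong, escort the shedding protease ADAM10 out of the endoplasmic reticulum.

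The libraries held 33640814 to 37896467 reads assigned to genes, and 3 reads correspond to 2.84 to 3.24 normalized counts. BRD8 itself stood at 2751, 2928 and 3067 normalized counts in the control libraries and at 1312, 1084 and 1156 in the BRD8 siRNA libraries, so the label and the targeted gene went together. All 10 airway epithelial markers were present, with summed levels of 398111 to 487860 normalized counts in control and 531766 to 588091 in BRD8 siRNA libraries. Of 8 leukocyte markers 3 reached 10 normalized counts, nearly all of their sum being LYZ, a lysozyme that airway glands also make, while PTPRC was below 4 in both groups and CD2 was at 0. Endothelial markers summed to at most 14.2 normalized counts, and 2 of 8 fibroblast markers reached 10. From control to BRD8 siRNA, mean LUM went from 28.5 to 54.7 and was called higher. Mean COL1A1 went from 189 to 162 and was not called. The fibroblast markers summed to 218 to 229 normalized counts in control and 216 to 233 in BRD8 siRNA libraries. Control library 2 stood apart from the other libraries on the second principal component (20.6% of the variance). Separate cultures for each library are not mentioned in the labels, so the spread behind each p-value may be only technical.

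The sequences ahead of the start sites of 4 members are shown because they belong to the members with the largest differences (TSPAN1 and TSPAN8), to the vesicle marker CD63 and to CD9, whose groups overlapped. Each is the 250 bases before the RefSeq start, on the gene's own strand and in build GRCh38.p14. Capitals mark matches, on either strand, to the TATA box TATAAA, the CCAAT box CCAAT, the GC box GGGCGG, the E-box CACGTG, the ETS core CCGGAA and the AP-1 motif TGANTCA. No matches overlapped in these 4 windows.
TSPAN1: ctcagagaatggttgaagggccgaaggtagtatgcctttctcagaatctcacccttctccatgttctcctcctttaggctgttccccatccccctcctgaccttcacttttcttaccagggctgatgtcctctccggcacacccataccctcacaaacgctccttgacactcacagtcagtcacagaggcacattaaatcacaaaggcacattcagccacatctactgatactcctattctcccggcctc
TSPAN8: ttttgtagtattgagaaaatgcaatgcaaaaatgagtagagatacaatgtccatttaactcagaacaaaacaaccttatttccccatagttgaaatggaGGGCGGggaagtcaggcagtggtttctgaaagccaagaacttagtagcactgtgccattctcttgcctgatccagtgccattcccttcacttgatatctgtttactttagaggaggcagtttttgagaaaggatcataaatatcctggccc
CD63: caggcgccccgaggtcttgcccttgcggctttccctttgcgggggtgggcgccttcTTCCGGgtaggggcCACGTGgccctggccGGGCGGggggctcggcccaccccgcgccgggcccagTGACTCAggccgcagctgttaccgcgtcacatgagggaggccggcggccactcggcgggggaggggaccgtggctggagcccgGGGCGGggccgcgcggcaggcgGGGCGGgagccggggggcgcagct
CD9: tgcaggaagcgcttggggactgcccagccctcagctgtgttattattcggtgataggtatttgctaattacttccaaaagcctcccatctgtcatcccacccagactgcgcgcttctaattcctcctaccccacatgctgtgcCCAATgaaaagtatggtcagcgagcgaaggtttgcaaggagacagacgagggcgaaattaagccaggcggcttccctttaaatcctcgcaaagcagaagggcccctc
The TSPAN1 window lies at chr1:46174837-46175086 on the plus strand and the TSPAN8 window at chr12:71158000-71158249 on the minus strand. That of CD63 lies at chr12:55729010-55729259 on the minus strand and that of CD9 at chr12:6199696-6199945 on the plus strand. The TSPAN1 window held none of the 6 motifs, and the TSPAN8 window held GGGCGG alone, at a GC content of 40.8%. The CD63 window, at 79.2% GC, held GGGCGG at 3 places and the E-box, the ETS core and the AP-1 motif once each. CACGTG occurs in 6.49% of the 27305 RefSeq windows of this length and TGANTCA in 6.60%. The CD9 window held CCAAT once, as did 33.0% of all windows. RefSeq windows were matched for 8 of the 10 members. Among those 8, GGGCGG was present in 6, against 42.3% of all windows, and TATAAA in none, against 11.1%. Members that were higher in BRD8 siRNA libraries lay behind both GC-rich and GC-poor windows, from 40.8% for TSPAN8 to 88.0% for TSPAN14. The median GC of the 8 matched windows was 70.6%, against 58.0% for all windows. A match of letters is a description of the window and not of a bound site.

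In control cells CD63 was the most abundant tetraspanin transcript per length. It stood at 15498 ± 2296 normalized counts per kilobase of its main transcript (mean ± SD, n = 3 control libraries), followed by TSPAN8 at 10369 ± 929 and CD151 at 7466 ± 1275. Next came CD9 at 5817 ± 324, TSPAN13, which is not among the 10, at 5535 ± 107, and CD81 at 4857 ± 672. In this second tier the ranges of CD9 and TSPAN13 overlapped, as did those of TSPAN13 and CD81, so their order is not fixed beyond the spread. TSPAN1 (2804 ± 515) and TSPAN15 (2775 ± 184) could not be ordered either. TSPAN17 reached 927 ± 119 and TSPAN4 369 ± 52.7. TSPAN14 came last of the 10 at 235 ± 1.49 per kilobase, but its main annotated transcript is 16183 bases long. Per kilobase of coding sequence it stood at 4704 ± 29.7, between TSPAN15 at 5342 ± 354 and TSPAN17 at 2374 ± 304. By coding length the ranges of CD63 and TSPAN8 overlapped, as did those of CD151 and CD9. On that scale TSPAN13 and TSPAN3, at 18928 and 18023, had higher means than CD151 at 16308. By both lengths CD63, a protein of vesicles and lysosomes, and TSPAN8, a tetraspanin of secretory and tumour epithelia, had the highest means.

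**Figure D1:**
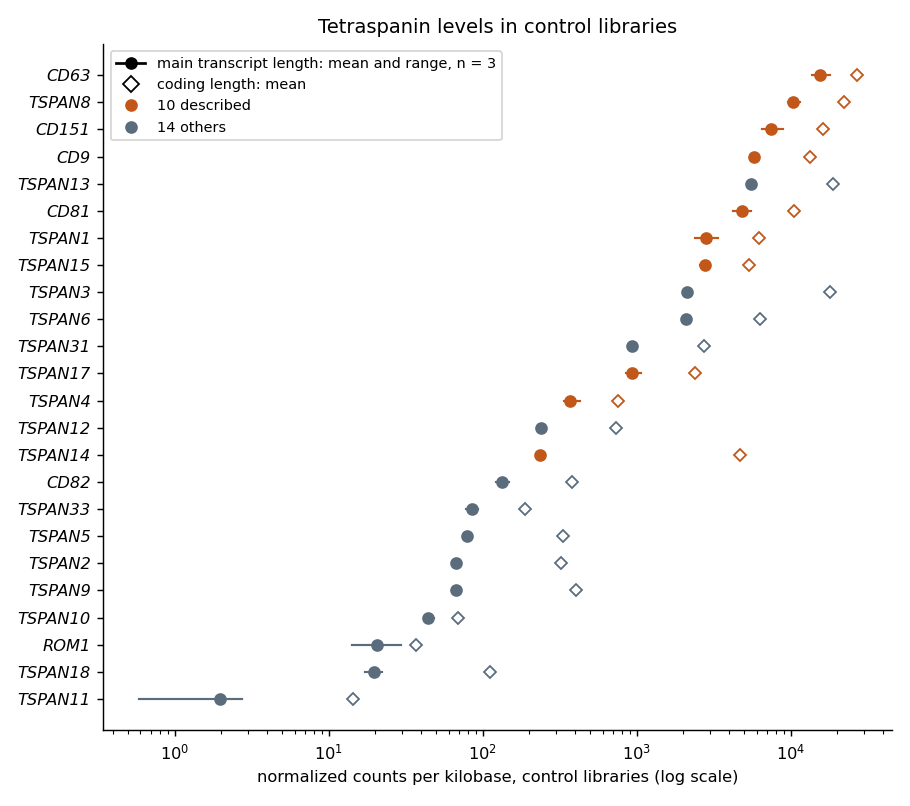
Level of the 24 tested tetraspanins in the 3 control libraries, in normalized counts per kilobase on a log scale. Circles and lines give the mean and range by main transcript length and open diamonds the mean by coding length; CD63 is highest at 15498 per kilobase, and TSPAN14 moves from 235 to 4704 with the length used.

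Most of these tetraspanins were higher after BRD8 siRNA, by less than 2-fold. In the fit over all 15354 genes tested (limma, adjusted p under 0.05), 7 of the 10 were called higher and 0 lower, where 10.1% of all genes were called higher and 8.93% lower. TSPAN1, TSPAN4, TSPAN8, TSPAN14, TSPAN15, TSPAN17 and CD63 were called, and CD81, CD151 and CD9 were not. The median log2 fold change of the 10 was 0.38, against -0.01 over all genes tested. Groups that did not overlap, with the BRD8 siRNA libraries higher, were found for 8 of the 10, where 18.9% of all genes had that pattern. Because the members were chosen on this contrast, these counts describe the choice and support nothing further.

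TSPAN1, an apical and endosomal tetraspanin of secretory epithelia, had the largest difference. Its normalized counts were 3849, 5457 and 4281 in control libraries 1, 2 and 3 and 7654, 7358 and 6979 in BRD8 siRNA libraries 1, 2 and 3. Control library 2 was the highest control, and it still lay well below every BRD8 siRNA library. The log2 fold change was 0.71 (SE 0.121), a 1.62-fold difference of means.

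TSPAN8, a glycoprotein of mucosal epithelia that associates with EPCAM and claudins, was the most abundant of the TSPAN-named members. It had 14657, 17318 and 15184 normalized counts in control and 23735, 23246 and 22297 in BRD8 siRNA libraries. The groups were well apart, with the lowest BRD8 siRNA library far above the highest control. The log2 fold change was 0.56 (SE 0.0813), or 1.47-fold.

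TSPAN4, known from migrasomes, the vesicle-bearing fibres that moving cells leave behind, had the fewest normalized counts of the 10. They were 493, 628 and 497 in control and 668, 839 and 792 in BRD8 siRNA libraries. The groups came close, since control library 2 and BRD8 siRNA library 1 were nearly level. The log2 fold change was 0.51 (SE 0.126). On chromosome 11, TSPAN4 and CD151 lie side by side with POLR2L between them.

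The 3 members of the TspanC8 subgroup were all called higher, where 10.1% of all genes were. TSPAN15, the ADAM10 partner linked to cleavage of N-cadherin, had 4396, 5019 and 4719.6 normalized counts in control and 6341, 6326 and 5867 in BRD8 siRNA libraries (log2 fold change 0.39, SE 0.0762). TSPAN14, an ADAM10 partner with a role in Notch signalling, was almost identical among controls at 3808, 3787 and 3835 and stood at 4846, 4617 and 4698 after BRD8 siRNA (log2 fold change 0.31, SE 0.0637). TSPAN17, a further escort of ADAM10, had 2209, 2713 and 2171 in control and 3160.4, 3126 and 2801 after BRD8 siRNA (log2 fold change 0.36, SE 0.101). The groups of TSPAN15 and TSPAN14 were clearly apart, while those of TSPAN17 nearly touched at control library 2 and BRD8 siRNA library 3. The remaining TspanC8 genes, TSPAN5, TSPAN10 and TSPAN33, were measured at far lower levels and none was called. Their control means were 267, 81.3 and 159 normalized counts. Summed over all 6 TspanC8 genes the level went from 11394 ± 580 to 14463 ± 524 normalized counts (mean ± SD, n = 3 each), 1.27-fold. Most of that sum came from TSPAN14, TSPAN15 and TSPAN17, which were chosen on this contrast, so it describes the choice.

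Of the vesicle tetraspanins CD63, CD81 and CD9, CD63 was called higher. CD63, which cycles between late endosomes, lysosomes and the surface, had 16957, 22316 and 18053 normalized counts in control and 27497, 25434 and 23225 in BRD8 siRNA libraries (log2 fold change 0.42, SE 0.113). CD81, a partner of claudin-1 and of immunoglobulin-type proteins at the surface, had 6364, 8406 and 7379 against 9192, 9123 and 8416 (log2 fold change 0.28, SE 0.103) and was not called. Its groups were parted only by the small step from 8406 in control library 2 to 8416 in BRD8 siRNA library 3. CD9, which shapes membrane fusion and curbs ADAM17, had 8828, 9694 and 8805 in control and 8480.1, 9563 and 8784 in BRD8 siRNA libraries. Its groups overlapped fully, at a log2 fold change of -0.03 (SE 0.0769). Whether CD9 differed from the other members was not tested.

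CD151, which binds the laminin-binding integrins, had 10741, 14765 and 11627 normalized counts in control and 16951, 16029 and 14726 in BRD8 siRNA libraries. Control library 2 lay just above BRD8 siRNA library 3, so the groups overlapped. The log2 fold change was 0.37 (SE 0.118), and CD151 was not called by limma. The authors' deposited table gives it a log2 fold change of 0.36 with an adjusted p of 0.0281. There, 8 of the 10 members had an adjusted p under 0.05, all higher, where 10.4% of its genes were higher at that threshold.

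**Figure D2:**
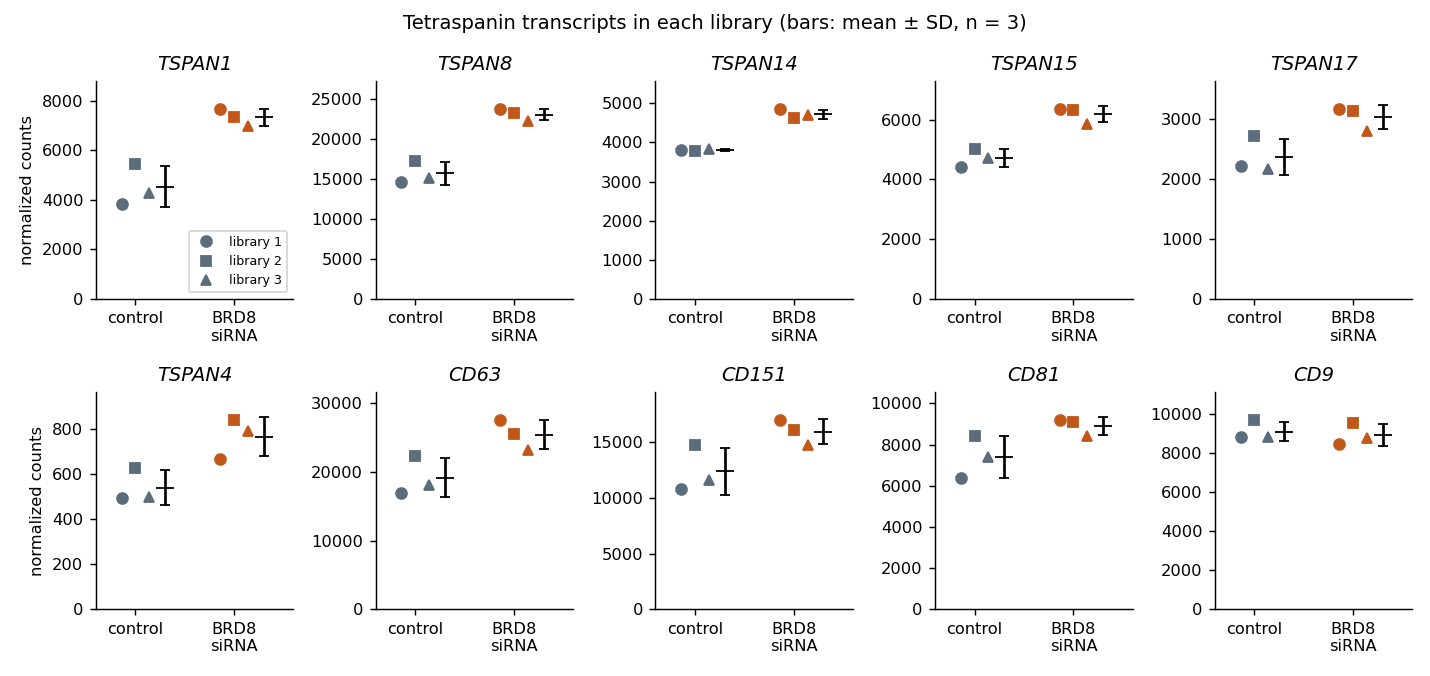
Normalized counts of the 10 tetraspanins in each of the 6 libraries, from 0, with marker shapes for library 1, 2 and 3 of each group and bars for the mean ± SD (n = 3). Control library 2 (square) is the highest control for 9 of the 10, and the groups overlap only for CD151 and CD9.

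Summed over the 10 genes, control libraries held 72302, 90104 and 76552 normalized counts and BRD8 siRNA libraries 108524, 105662 and 98584. Every BRD8 siRNA library lay above every control library, and the mean was 1.31-fold higher. Since the 10 were chosen on this contrast, this sum describes the choice as well. As a share of all reads the 10 took 0.223% ± 0.0223 in control and 0.291% ± 0.0137 in BRD8 siRNA libraries (mean ± SD, n = 3 each).

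Control library 2 moved with these transcripts and with transcript length. It was the highest of the 3 controls for 9 of the 10 members, TSPAN14 being the exception, and for 43.7% of all genes tested. The median ratio of control library 2 to the mean of the other 2 controls was 1.23 over the members and 1.01 over all genes. Across all genes that ratio fell with the length of the main transcript, from 1.16 between 1000 and 2000 bases to 0.762 at 8000 bases and above. Of the 10 members 8 have a main transcript of 1000 to 2000 bases. The difference between the groups moved with length as well. Its median log2 fold change was 0.03 under 1000 bases, 0.02 from 1000 to 2000, 0.01 from 2000 to 4000, -0.06 from 4000 to 8000 and -0.14 at 8000 bases and above. The share of genes called higher did not fall steadily. It was 8.41% under 1000 bases, 11.1% from 1000 to 2000, 12.0% from 2000 to 4000, 8.57% from 4000 to 8000 and 6.19% at 8000 bases and above. After each library was corrected for a trend with transcript length and GC, the members' median log2 fold change was 0.35 and 8 were called higher, where 17.3% of genes were. TSPAN14, with the longest main transcript of the 10, went from 0.31 (SE 0.0637) to 0.45 (SE 0.115). Its limma adjusted p went from 0.0113 to 0.0156. The control library 2 ratio of TSPAN14 was 0.991, above the 0.762 median of its length class. The part of length and of control library 2 in the members' differences was not tested.

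**Figure D3:**
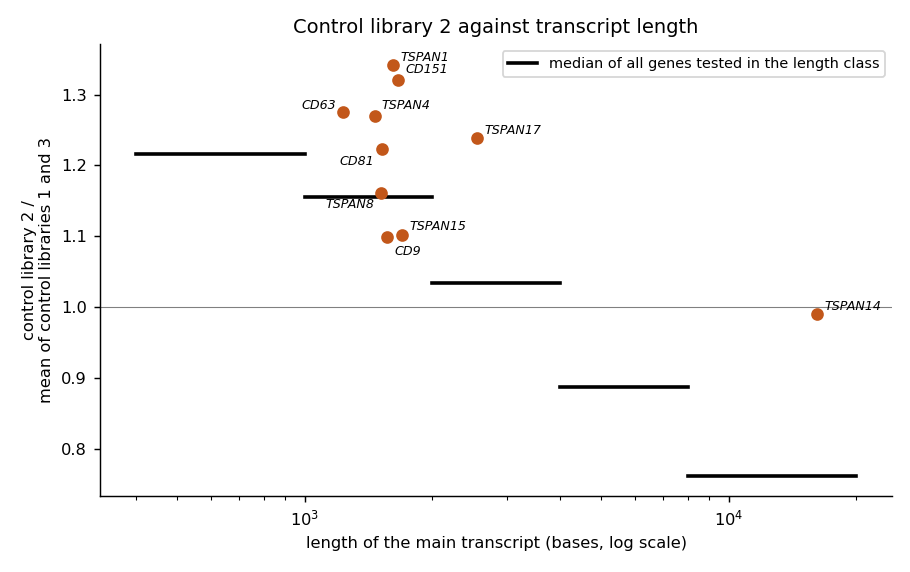
Ratio of control library 2 to the mean of control libraries 1 and 3 for the 10 tetraspanins (points) against the length of the main transcript, log scale. Black lines are medians of all genes tested in 5 length classes, falling to 0.762 for the longest; the members run from 0.991 for TSPAN14 to 1.34 for TSPAN1.

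CD151 was also called with DESeq2, which made 8 members (10.4% of genes higher). That fit repeats the authors' deposited comparison. TMM scaling (10.2%), edgeR (10.7%), a pseudocount of 5 (10.1%) and no filter on low values (6.46%) each gave 7. How many members were called depended on the libraries. Without control library 2, 9 were called higher, all but CD9, where 15.9% of genes were higher. Omitting control library 1 gave 4 (6.94% of genes) and omitting control library 3 gave 3 (5.42%). Leaving out BRD8 siRNA library 1, 2 or 3 left 5 (7.44% of genes), 4 (5.82%) and 3 (5.67%). TSPAN1, TSPAN8 and TSPAN15 were called in each of these 6 fits. TSPAN14 was called in 4 of the 6, TSPAN4 in 2, and TSPAN17, CD63, CD151 and CD81 in 1. No fit turned the direction of any member except CD9, whose log2 fold change ran from -0.08 to 0.02 and which was never called.

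The 23 other human tetraspanins are the rest of the family after the members were taken out. The members were chosen with the difference already known, so this remainder is not independent of how its genes moved. Its counts are therefore a description and not a test. Of the 23, 14 were abundant enough to test, and 0 passed in either direction (limma, adjusted p under 0.05), against 19.0% of all genes. An unadjusted p under 0.05 was found for 2 of the 14, against 5084 of the 15354 genes tested. With edgeR 0 of the 14 were called, against 19.3% of all genes. Their median log2 fold change was 0.15, with 11 of 14 positive. TSPAN3, an abundant and broadly expressed member, had 12877, 14491 and 13671 normalized counts in control and 16295, 16016 and 15575 in BRD8 siRNA libraries. Its groups did not overlap, at a log2 fold change of 0.22 (SE 0.0712, limma adjusted p = 0.0581), and the authors' deposited table gives an adjusted p of 0.0342. TSPAN13 stood at 11584 ± 223 in control and 11929 ± 214 after BRD8 siRNA, and TSPAN6, which restrains antiviral signalling, at 4626 ± 103 and 4501 ± 147 (mean ± SD, n = 3 each). Both had overlapping groups.

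Among the other family members, CD82, a metastasis suppressor, had a log2 fold change of 0.24, TSPAN9 of 0.17, TSPAN12, the Norrin and Frizzled-4 coreceptor, of 0.12, and TSPAN31 of 0.11. The groups of CD82, TSPAN9 and TSPAN12 did not overlap, with the BRD8 siRNA libraries higher. With TSPAN3 that made 4 of the 14, where 18.9% of all genes had that pattern. TSPAN31 shares 1369 exonic bases with CDK4 on the opposite strand. The scarce genes TSPAN10, TSPAN18, TSPAN33 and ROM1, all under 210 normalized counts in every library, lay between 0.13 and 0.33, and TSPAN11 at 0.26 with an SE of 0.542. TSPAN2 and TSPAN5 lay at -0.02 and -0.06. The 9 left out of the test had means under 10 normalized counts. They included CD53 and CD37, tetraspanins of leukocytes, the former at 0 in 5 of 6 libraries. UPK1B, a urothelial tetraspanin, had 0, 3.24 and 4.07 normalized counts in control and 9.36, 7.59 and 8.70 in BRD8 siRNA libraries, close to the floor of 3 reads.

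**Figure D4:**
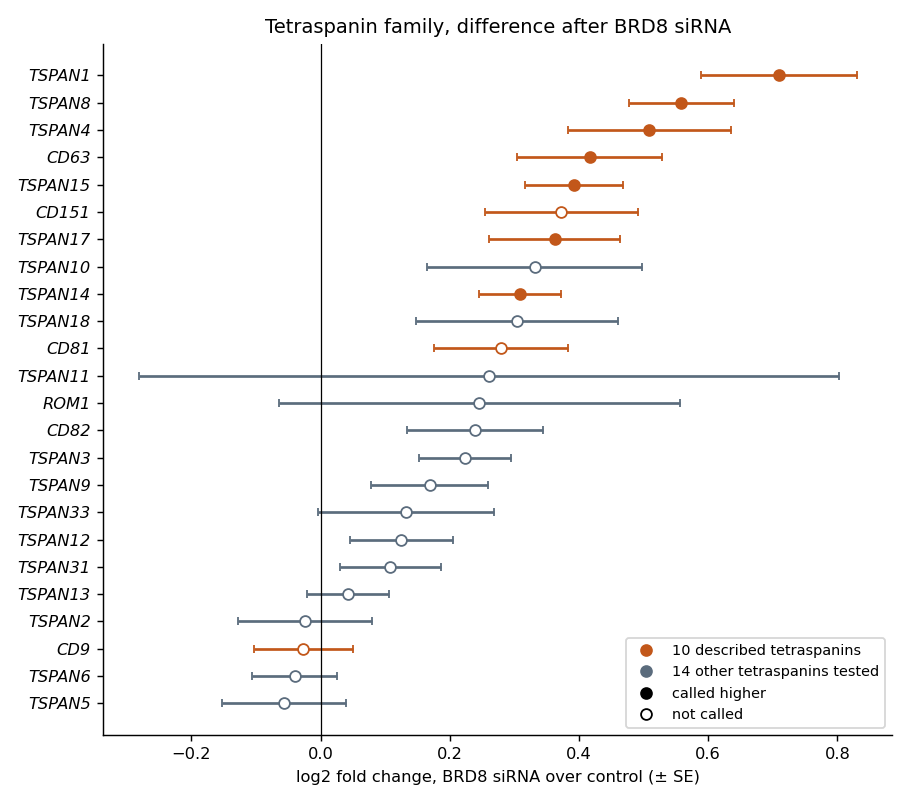
Log2 fold change of the 24 tested tetraspanins, BRD8 siRNA over control, with the standard error of the fit. Filled points are called higher by limma; they run from 0.31 for TSPAN14 to 0.71 for TSPAN1, and none of the 14 genes outside the 10 is filled.

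Among transcripts of the proteins that tetraspanins bind, 10 of 28 tested rose, where 10.1% of all genes did. Falls were called for 3 of the 28, near the 8.93% of all genes. The median log2 fold change of the 28 was -0.03. This list and those of ADAM10 substrates, vesicle, lysosome and TM4SF genes were chosen with earlier results of these data known. Their counts are a description only. SDCBP, which encodes syntenin, the adaptor that binds CD63 and drives vesicle budding, stood at 3775 ± 194 and rose to 5417 ± 172 normalized counts (by 0.52 on the log2 scale, SE 0.0707, limma adjusted p = 0.00184). HBEGF, a growth factor precursor held by CD9, rose from 445 ± 24.2 to 634 ± 33.2, and the integrin chain ITGB1 from 60060.4 ± 5815 to 82919 ± 4147. ZDHHC2, a palmitoyltransferase that modifies CD9 and CD151, fell from 5615 ± 551 to 4112 ± 221 (log2 fold change -0.45). The other falls were ITGA6 and DPP4. Within the laminin-binding integrins that CD151 holds, ITGA3 rose from 18834 ± 206 to 22934 ± 467 while ITGA6 fell from 32672 ± 3747 to 23652 ± 1301. These 3 genes were singled out after their values were seen. The count of partners that rose was 6 when control library 1 was omitted (6.94% of all genes). It was 3 when control library 3 was omitted (5.42%). It was 5, 3 and 3 when BRD8 siRNA library 1, 2 or 3 was omitted. The shares of all genes that rose were then 7.44%, 5.82% and 5.67%. The count that fell became 8 on omitting control library 2 (18.1% of all genes) and 0 on omitting control library 3 (3.44%). On omitting BRD8 siRNA library 2 it was 1 (4.4%).

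ADAM10, the client of the TspanC8 group, was not called. It had 19910, 15073 and 18939 normalized counts in control and 14188, 14019 and 15651 in BRD8 siRNA libraries, and the groups overlapped at control library 2 (log2 fold change -0.29, SE 0.109, limma adjusted p = 0.0998). Its main transcript is 11431 bases long, and its log2 fold change was -0.11 after the length and GC correction and -0.41 without control library 2. Of 15 tested substrates of ADAM10, 3 rose and 3 fell, where 10.1% and 8.93% of all genes did, and the median log2 fold change was -0.05. N-cadherin (CDH2), which TSPAN15 directs ADAM10 to, rose from 88.0 ± 18.3 to 183 ± 9.21 normalized counts, E-cadherin (CDH1) rose by 0.49 on the log2 scale, and the membrane-bound chemokine CX3CL1 by 0.67. The receptor kinase AXL fell from 10492 ± 598 to 6635 ± 354 (log2 fold change -0.66, SE 0.0751, limma adjusted p = 8.93e-04). L1CAM and NOTCH3, named after their values were seen, fell by 0.39 and 0.41.

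**Figure D5:**
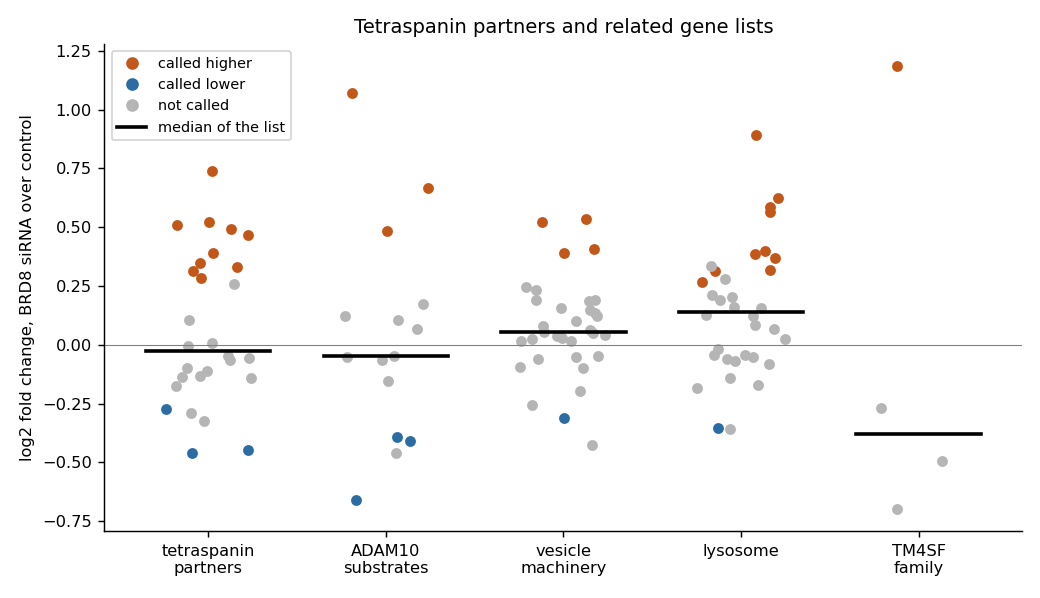
Log2 fold change of the tested genes in 5 lists, 1 point per gene, with the list's median as a black line and sideways scatter only for legibility. Partners, ADAM10 substrates and vesicle genes have medians from -0.05 to 0.05, the lysosome list 0.14 and the TM4SF family -0.38. In the TM4SF family 1 gene, TM4SF4, is called higher at 1.18.

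CD63 is held in vesicles and lysosomes. Of 33 genes of vesicle formation 4 rose, near the 10.1% of all genes, and 1 fell, where 8.93% of all genes did, with a median log2 fold change of 0.05. Beside SDCBP the rises were the syndecans SDC4, from 24284 ± 1118 to 32157 ± 713 normalized counts, and SDC1, from 10822 ± 735 to 14182 ± 1066, whose tails bind syntenin, and SMPD3, a sphingomyelinase of vesicle budding, by 0.54 on the log2 scale. VPS4B, the ATPase that disassembles the budding machinery, was the fall. In the lysosome list 10 of 34 genes rose and 1 fell, where 10.1% and 8.93% of all genes did, with a median log2 fold change of 0.14. The acid sphingomyelinase SMPD1 rose from 395 ± 57.8 to 730 ± 21.7, the cathepsins CTSH and CTSS by 0.63 and 0.39 on the log2 scale, and the ceramidase ASAH1 by 0.37. LIPA, the acid lipase, was the fall, at -0.36. VPS4B and LIPA were named after their values were seen.

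Where exons of some members overlap those of another gene, reads cannot be told apart, because the library kit does not mark strand. The strand setting used in counting is not stated. In GENCODE v29 the exons of CD151 overlap those of POLR2L by 257 bases, and those of CD63, CD81 and TSPAN14 overlap noncoding antisense genes by 237, 30 and 235 bases. POLR2L itself stood at 2026 ± 429 normalized counts in control and 2412 ± 394 in BRD8 siRNA libraries and was not called. In bulk RNA a lower or higher level per cell and a change in the cells present cannot be told apart.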

How the data were processed

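RNA-seq libraries from 3 control and 3 BRD8 siRNA samples of Calu3 were grouped by sample title; the extraction protocol in the labels speaks of HBE cells, and the titles were followed. Reads were aligned with STAR 2.6 and counted with featureCounts 1.6.3, and DESeq2 1.22.1 and build hg19 are named too, per the submitters' processing notes. Which annotation and strand setting served is not stated there. Per the file headers and values, the deposited signal is normalized: the authors scaled each library's gene counts by a size factor. Their deposited table adds p-values, a score for each gene's test, and a log2 fold change with its SE. Multiplying back gave whole reads (100% of values within 0.01), and replicates differed by more than sampling noise (chi-square per degree of freedom 6.63 to 51.9).

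Because the values were normalized, the main test was limma 3.58.1 in R 4.3.3, with the prior variance following mean level. It used log2(normalized count + 1) of genes whose mean reached 10, with Benjamini-Hochberg adjustment over all of them and a threshold of 0.05. Fold changes on this scale understate the change of low genes. The edgeR 4.0.16 quasi-likelihood test and DESeq2 1.42.0 were run on the recovered reads, and the scripts were tested on simulated data. Transcript lengths and GC content came from GENCODE 29, matched for 23748 symbols directly and 783 by synonym. The annotation is on another build than hg19, so no gene coordinates from it are given, and the promoter windows are RefSeq's on GRCh38.p14.

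The members and the gene lists were chosen with earlier results of these data known. Named by rule were the members, BRD8, ADAM10, all tested tetraspanins, up to 4 genes of smallest adjusted p per list and the 4 genes most like the member with the largest difference. The floor of 3 reads covers counting error only, while the SEs and SDs rest on the spread between libraries.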

Additional observations from a re-analysis of the deposited data

How the results depend on the processing

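Beside 2920 changed genes and 7 changed members of the 10, taking out the trend with length and GC content gave 4902 genes. Leaving out 1 library at a time gave 1360 to 5229 changed genes, 3 to 9 changed members, 0 to 2 changed genes among the other tetraspanins, and 3 to 18 changed partners, of which 3 to 10 rose and 0 to 8 fell. Across the fits without 1 library, 8.86% to 34.1% of all genes changed. With the trend taken out 5 partners fell, where 15.7% of all genes did. Among the other tetraspanins 1 gene, TSPAN3, changed with the replicate block, with DESeq2, with the trend taken out and in the authors' deposited table, against 0 in limma. Samples with the same replicate number were not paired, since their deviations from the group means correlated at -0.08, 0.34 and 0.15, and not every library correlated best with its own number. With the number as a replicate block 3901 genes changed, 12.6% of all genes being higher, and 8 members did, CD151 in addition. Of 140 alternative values for the members' fold changes, 118 kept their side of the threshold, 6 passed it newly and 16 no longer passed. None turned the direction of a called member. DESeq2 on the recovered reads repeats the authors' deposited comparison, with 3233 genes changed in each. Those settings are therefore not separate checks. The counts of changed genes, members and partners stayed within 1.5 times with TMM scaling, a pseudocount of 5, no filter on low values, edgeR and DESeq2.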

Other observations

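The TM4SF family shares the general shape of tetraspanins but is a separate group of membrane proteins. Of its 4 tested genes 1 rose, where 10.1% of all genes did. The median log2 fold change of the 4 was -0.38, and 1 of them was positive. TM4SF4, a membrane protein of liver and gut epithelium, had 15950, 18431 and 18376 normalized counts in control and 42352, 39250 and 38143 in BRD8 siRNA libraries, a log2 fold change of 1.18 (SE 0.0839, limma adjusted p = 1.21e-04), which is larger than that of any of the 10 tetraspanins. TM4SF1, at 92926 ± 6957 and 77179.6 ± 3940 (mean ± SD, n = 3 each), had groups that did not overlap in the other direction, at a log2 fold change of -0.27, and did not pass (limma adjusted p = 0.0570).

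The 4 genes whose log2 levels over the 6 libraries were most like those of TSPAN1 were ULBP2, SERPINA1, MPV17 and RABL2B, each at a Pearson r of 0.999. This is a description over 6 libraries in 2 groups, which all genes share. Of these, SERPINA1, the antitrypsin inhibitor, went from 15118 ± 2336 to 23341 ± 676 normalized counts, and ULBP2, a stress ligand, from 175 ± 14.5 to 215 ± 5.31. TSPAN13 lies beside AGR2 on chromosome 7, which went from 18744 ± 2826 to 39710 ± 1733 normalized counts. AGR2 was not named by the rule. TSPAN13 itself had a log2 fold change of 0.04 and was not called, and a link between these genes was not tested.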
